A study of Mus musculus with 4 samples.

Results

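Marker genes of other cell types can be read in sorted B cells because other cells passed the sort or because B cells use the gene themselves. The genes described here are 41 markers of T cells, of macrophages, monocytes and granulocytes, of dendritic cells, and of stromal and follicular dendritic cells, taken as a fixed list of symbols. That list was chosen with earlier results of these data known. Of these, 39 were measured, by 64 probe sets that the platform annotation gives to a single one of these symbols, out of 18194 genes and 34958 such probe sets in all. Lck and Clec9a were not analysed here.

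The study measured 4 groups of mouse B cells with 1 Affymetrix array each. Germinal centre (GC) B cells were sorted by the surface phenotype B220+PNA+Fas+, where PNA is a lectin that binds GC B cells. The naive B cell gate was B220+PNA-Fas-. One GC and one naive sample came from peripheral lymph nodes (pLN) of adult wild-type C57BL6/J mice that had received TNP-KLH, a hapten coupled to a protein, in incomplete Freund's adjuvant. The other GC and naive samples came from Peyer's patches, which are lymphoid tissue in the gut wall (PP), of adult wild-type C57BL6/J mice that were not treated, so tissue and immunisation cannot be told apart. Each sample was prepared from a pool of 3 to 5 mice kept free of specific pathogens, and single values therefore have no replicate error. No antibody against a T cell or myeloid marker is named for the sort.

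A GC is a cluster of dividing B cells inside a follicle, in close contact with follicular helper T cells, with macrophages that engulf dying B cells, and with follicular dendritic cells, which are stromal cells that hold antigen on their surface. T cells are recognised by the CD3 chains of their antigen receptor complex, together with the coreceptor CD4 or CD8. Macrophages are recognised by lysosomal, complement and scavenger genes. Some of the marker genes are also active in B lineage cells: Cd5 marks a subset of B cells, and Flt3 and Il7r serve B cell progenitors.

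The upstream sequences of 6 members are shown because the results turn on them: Flt3, Apoe and Lyz2 were called higher in GC cells, Cd300lf was many-fold brighter in PP than in pLN in both cell types, and S100a8 and S100a9 stood out on a single array. Each line gives the 250 bases before the RefSeq start that lies furthest upstream (build GRCm38.p6), 5′ to 3′. Capitals mark a match on either strand to GAGGAAGT, an Ets family core as bound by PU.1, to TATAAA, the TATA box, or to CACCTG, an E-box bound by E proteins.
Flt3 (chr5:147400490-147400739, minus strand): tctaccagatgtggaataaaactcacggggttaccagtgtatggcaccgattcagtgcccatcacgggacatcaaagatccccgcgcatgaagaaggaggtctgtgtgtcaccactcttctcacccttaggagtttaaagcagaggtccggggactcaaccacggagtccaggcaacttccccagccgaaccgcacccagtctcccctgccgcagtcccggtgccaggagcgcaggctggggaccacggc
Apoe (chr7:19699189-19699438, minus strand): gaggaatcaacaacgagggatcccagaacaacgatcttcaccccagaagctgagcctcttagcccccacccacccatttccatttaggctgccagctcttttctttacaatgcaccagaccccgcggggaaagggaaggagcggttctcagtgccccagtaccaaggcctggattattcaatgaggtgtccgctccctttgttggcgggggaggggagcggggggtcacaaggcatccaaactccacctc
Lyz2 (chr10:117282273-117282522, minus strand): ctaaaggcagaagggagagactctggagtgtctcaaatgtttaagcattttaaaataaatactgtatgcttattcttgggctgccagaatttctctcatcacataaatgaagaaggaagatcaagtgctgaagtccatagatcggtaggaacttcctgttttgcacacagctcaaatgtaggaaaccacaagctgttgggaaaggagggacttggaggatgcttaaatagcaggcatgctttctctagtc
Cd300lf (chr11:115133993-115134242, minus strand): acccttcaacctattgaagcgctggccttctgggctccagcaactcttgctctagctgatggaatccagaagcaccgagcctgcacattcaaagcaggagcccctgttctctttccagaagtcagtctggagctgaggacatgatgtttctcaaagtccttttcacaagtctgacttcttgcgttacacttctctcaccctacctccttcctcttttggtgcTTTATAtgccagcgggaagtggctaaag
S100a8 (chr3:90668821-90669070, plus strand): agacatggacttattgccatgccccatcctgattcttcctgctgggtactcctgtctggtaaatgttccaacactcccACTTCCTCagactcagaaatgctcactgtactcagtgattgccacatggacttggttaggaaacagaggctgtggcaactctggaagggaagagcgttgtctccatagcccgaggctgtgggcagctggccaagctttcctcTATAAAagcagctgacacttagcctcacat
S100a9 (chr3:90695722-90695971, minus strand): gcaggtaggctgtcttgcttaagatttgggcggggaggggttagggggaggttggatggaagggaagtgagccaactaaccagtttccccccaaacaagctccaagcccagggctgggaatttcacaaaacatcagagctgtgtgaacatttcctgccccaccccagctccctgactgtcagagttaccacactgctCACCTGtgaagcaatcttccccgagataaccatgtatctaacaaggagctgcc
Upstream windows were found for 29 of the 39 measured members. GAGGAAGT was present in 3 of these, in S100a8, C1qc and Cd5, and in 2.42% of 27025 windows of the same length. TATAAA was present in 4 of 29 (Cd300lf, Cxcl13, S100a8 and Xcr1) and in 13.0% of all windows. CACCTG was present in 8 of 29, Cd3d and Cd3g among them, and in 17.1% of all windows. Flt3, Apoe and Lyz2 hold none of the 3 in the windows shown, and no matches in the 6 windows overlap. The matches describe letters in these windows and show no binding.

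Signals below are scaled so that the 2% trimmed mean of every array is 500. A probe set counts as detected when it lies above the 90th percentile of 91 probe sets of genes of unrelated tissues on the same array. This detection level was 86.7 for GC cells and 109.9 for naive cells of pLN, and 138 for GC cells and 294 for naive cells of PP. The high level on naive PP rests in part on apolipoprotein genes that the small intestine makes: without Apoa1, Apoa2 and Apob, a choice made after the data were seen, it was 154. The GC PP level was then 99.7, the GC pLN level 77.4 and the naive pLN level 107. All 9 measured genes of a B cell list (Cd79a, Cd79b, Ms4a1, Pax5, Cd22, Cd74, Blk, Fcrla and Ebf1) were detected on all 4 arrays, and Fas, on which GC cells were sorted, read 4266 (GC pLN) and 4980 (GC PP) against 515 (naive pLN) and 403 (naive PP). For Gapdh, the signal at the 3′ end over that at the 5′ end, a sign of RNA quality, was 1.48 and 1.67 on the GC arrays of pLN and PP and 18.7 and 96.4 on the naive arrays. It moved with every GC-naive difference below, and its part in them was not tested. In RNA from bulk samples, fewer cells of a type and less RNA per cell cannot be told apart.

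On any single array, most member probe sets were not detected, while 26 of the 39 genes were detected on at least 1 array. On the GC pLN array 16 of the 64 member probe sets were above the level, or 25.0%, against 49.3% of all probe sets. On naive pLN 18 were above it, or 28.1% against 43.3%. The GC PP array had the most, 21, or 32.8% against 45.7%. The naive PP array had the fewest, 8, or 12.5% against 29.3%, and 12 with the lower level of 154, the 4 gained being C1qb's 2 brighter probe sets, Mfge8 and 1 probe set of Csf1r. The members' percent was the lower one on each array at this level, a description with no test. At the 95th percentile the counts were 7 and 5 on the GC arrays of pLN and PP, or 10.9% and 7.81% against 38.4% and 31.4%. They were 7 and 2 on the naive arrays, or 10.9% and 3.12% against 33.9% and 15.6%. At the 75th percentile they were 46 and 39 on the GC arrays, or 71.9% and 60.9% against 65.3% and 60.7% of all probe sets, so the members' percent was then the higher one on both. On the naive arrays they were 34 and 25, or 53.1% and 39.1% against 57.5% and 50.4%. Without Gh and Prm1 in the other-tissue list the GC levels fell to 31.0 (pLN) and 56.0 (PP). The GC counts were then 38 and 33, or 59.4% and 51.6% against 59.9% and 55.7%, so the shares nearly met on GC pLN. The naive counts were 26 and 12, or 40.6% and 18.8% against 48.6% and 39%.

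**Figure D1:**
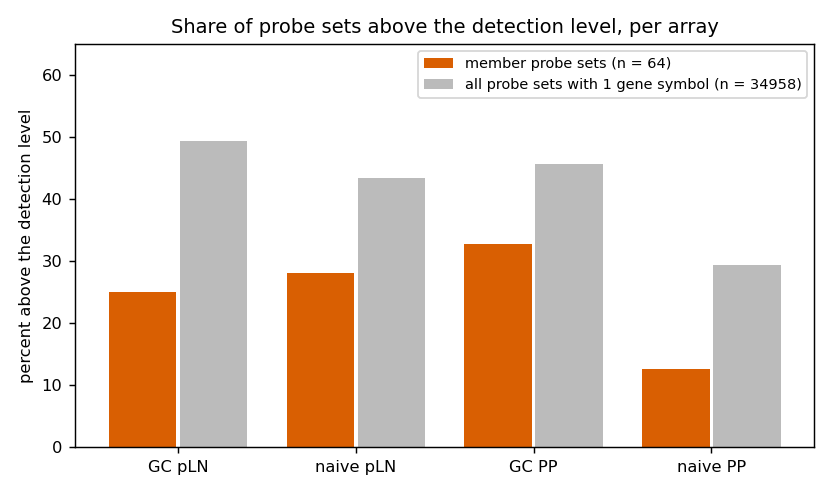
Percent of probe sets above the detection level of their array (y axis) on each of the 4 arrays (x axis), for the 64 member probe sets and for all 34958 probe sets with 1 gene symbol. With the level at the 90th percentile, as drawn, the member bar is the shorter one on every array, from 12.5% on naive PP to 32.8% on GC PP.

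Of the 39 measured members, 13 were above the level on no array. Among T cell genes these were the costimulatory receptors Cd28 and Icos, the inhibitory receptor Pdcd1, the coreceptor chain Cd8b1 and the receptor kinase Zap70, whose 10 probe sets read from 0.886 to 109.9 with a median of 31.1. The highest value was that of a Zap70 probe set on naive pLN, equal to that array's level. With Apoa1, Apoa2 and Apob left out the level was 107, and this probe set was then above it. Among myeloid genes they were C1qa and C1qc, which encode complement C1q chains, the growth factor receptor Csf1r, the engulfment receptor Mertk, the integrin chain Itgam, the endotoxin coreceptor Cd14 and the chemokine receptor Ccr2. Their 12 probe sets read from 1.18 to 154.5, with a median of 18.2. Cd14 stayed between 1.18 and 5.20 on all 4 arrays. Xcr1, a chemokine receptor of cross-presenting dendritic cells, did not exceed 26.3. Without Gh and Prm1 in the other-tissue list, the GC levels were 31.0 (pLN) and 56.0 (PP). Icos, Pdcd1, Cd8b1, Zap70, Ccr2 and Csf1r were then each above the level on a GC array, and the rest of the 13 stayed above no level.

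The T cell markers detected differed from array to array. Of 14 measured, 5 were detected on GC pLN (Cd3d, Cd3e, Cd5, Cd8a and Lat), 5 on naive pLN (Cd4, Cd5, Cd8a, Il7r and Thy1), 4 on GC PP (Cd3d, Cd3e, Cd3g and Cd8a) and 1 on naive PP (Cd8a). By these levels the 3 CD3 chains were detected on GC arrays only, Cd3g on GC PP alone. The coreceptor gene Cd4, the interleukin 7 receptor gene Il7r and the surface marker Thy1 were detected on naive pLN alone. Such a split can rest on the levels: Cd3e read 95.3 on GC pLN (level 86.7) and 95.8 on naive pLN (level 109.9). The summed signal of the 25 T cell probe sets was 1580 on GC pLN and 2136 on GC PP, with 2177 on naive pLN and 1294 on naive PP.

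Cd3e, a signalling chain of the T cell receptor, read 95.3 on GC pLN and 244 on GC PP, with 95.8 on naive pLN and 74.1 on naive PP. Cd3d read 106 on GC pLN and 236 on GC PP, with 84.1 and 43.2 on the naive arrays of pLN and PP. Cd3g read 74.6 and 204 on the GC arrays and 52.0 and 12.9 on the naive arrays, pLN first. All 3 were brightest on the GC PP array, where Cd3d was 2.22-fold, Cd3e 2.56-fold and Cd3g at least 2.35-fold as bright as on GC pLN. A fold is written as "at least" where the dimmer array was under its level, and then sets the bright signal against that level. The 3 genes lie side by side in the genome, and no fold against the naive PP array can be given, since their GC PP signals were below its level of 294. Cd3d and Cd3e were tested between GC and naive cells and were not called (log2 difference 1.21 ± 0.55, limma's moderated SE, limma adjusted p = 0.07, and 0.77 ± 0.53, adjusted p = 0.23). With each dim signal raised to its array's level, both differences were below 0 (-0.17 and -0.22). That sign was set by the levels, since in each tissue the GC signal was below the naive level (109.9 in pLN, 294 in PP). It therefore says nothing on these genes. Of 18 alternatives, 4 called Cd3d and 0 called Cd3e.

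Cd4 read 155 on naive pLN against 6.77 on naive PP, with 40.9 and 61.4 on the GC arrays of pLN and PP. Il7r read 244 on naive pLN and 85.7, 69.3 and 37.4 on GC pLN, GC PP and naive PP. Thy1 read 202 on naive pLN and 80.2, 47.0 and 57.7 on the same arrays. In pLN, naive cells were thus at least 1.79-fold (Cd4), 2.81-fold (Il7r) and 2.33-fold (Thy1) above GC cells. No fold could be given for them in PP, where neither array detected them. A second probe set each of Cd4 and Il7r was detected nowhere. With Apoa1, Apoa2 and Apob left out, the GC pLN level was 77.4, and Il7r and Thy1 were then above it on GC pLN.

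Cd8a, the alpha chain of the CD8 coreceptor, was the only T cell member detected on all 4 arrays, through 1 of its 5 probe sets. That probe set read 127 on GC pLN and 273 on GC PP, with 548 on naive pLN and 388 on naive PP. It was called lower in GC cells (log2 difference -1.24 ± 0.47, limma adjusted p = 0.0323), by 4.32-fold in pLN and 1.42-fold in PP. The other 4 probe sets ranged from 3.61 to 125 and were above no level, and with the mean of all 5 the difference was 0.02 (adjusted p = 0.976). Scaled to the spike-in controls it was -0.10 (adjusted p = 0.967), and the call was also lost without the tissue block (adjusted p = 0.0687), with 1 probe set per gene (adjusted p = 0.0506) and without GC pLN (0.482), naive pLN (0.102) or GC PP (0.105). The partner chain Cd8b1 was not detected.

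Lat, an adaptor downstream of the T cell receptor, read 407 on GC pLN against 126 on GC PP, with 75.6 and 63.2 on the naive arrays of pLN and PP. It was detected on the GC pLN array alone, at least 3.70-fold above naive pLN and at least 2.94-fold above GC PP. Cd5, a scavenger receptor family protein of T cells and some B cells, varied little: it read 98.0 and 117 on the GC arrays of pLN and PP and 141 and 103 on the naive arrays, and was detected in pLN only. With Apoa1, Apoa2 and Apob left out, the GC PP level was 99.7, and Lat and Cd5 were then above it on GC PP.

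**Figure D2:**
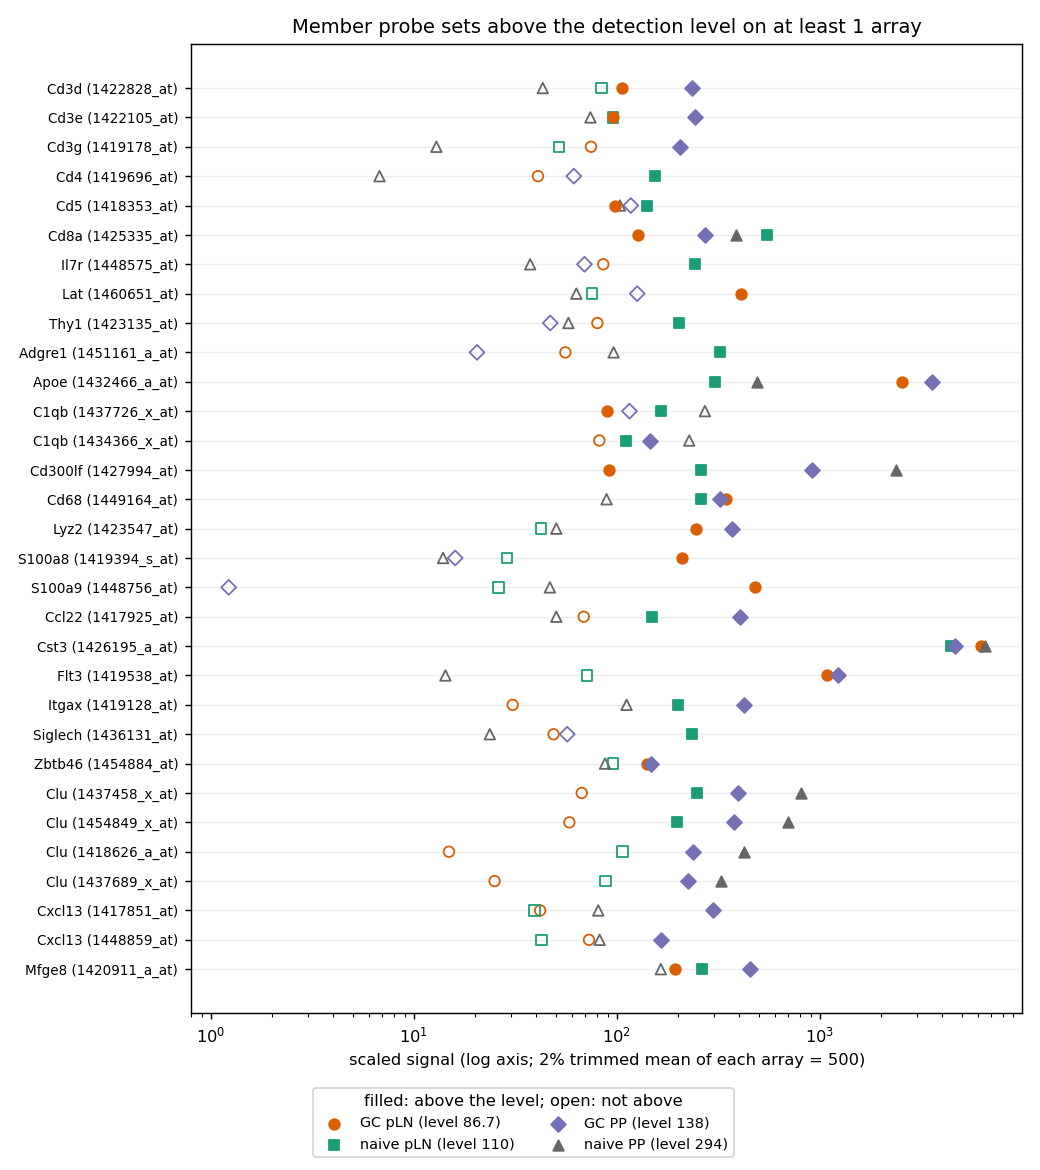
Scaled signal (x axis, log scale) of the 31 member probe sets that were above the detection level on at least 1 array (y axis), with a symbol for each of the 4 arrays, filled where the signal is above that array's level and open where it is not. Flt3 and Lyz2 are filled on the GC arrays only, the CD3 genes are brightest on GC PP, and S100a8 and S100a9 are filled on GC pLN only.

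The members called between GC and naive cells, over the 2 tissues together, were Flt3, Apoe and Lyz2, higher, and Cd300lf, Clu and Cd8a, lower. A call is on the mean of the 2 tissues, and no difference was tested within a tissue. In PP, Cd8a was 1.42-fold lower and Lyz2 at least 1.26-fold higher in GC cells. No lower call held under every alternative. The GC-naive test used limma with tissue as a block over 16104 probe sets that both GC arrays or both naive arrays detected. Only 13 member probe sets of 12 genes passed that filter: 3 were called higher, where 33.6% of all tested probe sets were, and 4 lower, where 18.3% were. With so few members tested, nothing is read from the distance between these shares and the members' counts. Of all calls 64.7% were higher, against 53.0% with quantile normalization, 51.9% with the brightest probe set per gene and 99.0% with arrays scaled to the spike-in controls, and the median log2 difference of all tested probe sets was 0.38, 0.07, -0.00 and 1.54 in these settings. Of the 25 T cell probe sets 3 were tested, with 1 called lower. Of 22 macrophage, monocyte and granulocyte probe sets 4 were tested, with 2 higher and 1 lower, of 10 dendritic cell probe sets 3 with 1 higher, and of 7 stromal probe sets 3 with 2 lower. The median log2 difference over all 64 member probe sets was -0.05, against -0.12 over all 34958. With 1 residual degree of freedom, the SEs and p-values rest mostly on the spread that limma estimates across all probe sets, not on how the 2 tissues differ at the probe set itself. Probe sets detected on the GC arrays alone, as those of Flt3, Lyz2 and Zbtb46, entered the test through the group where they were high, and their log2 differences are against signals under the level. The same holds in the other direction. The 2 called Clu probe sets, under the level on GC pLN, and Spic of a further list, under it on both GC arrays, entered only through the naive arrays, where they were high.

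Flt3, a receptor tyrosine kinase of dendritic cells and early progenitors, read 1083 on GC pLN and 1231 on GC PP against 71.3 on naive pLN and 14.3 on naive PP. Both GC signals were far above their levels and both naive signals were below theirs. It differed by 4.56 ± 0.50 on the log2 scale (limma adjusted p = 2.77e-07), taken against the naive signals as measured. With dim signals set to the level the difference was 2.58 (limma adjusted p = 1.88e-09). Against the naive levels, GC cells were at least 9.85-fold higher in pLN and at least 4.19-fold higher in PP. Of 7 dendritic cell members, 3 were detected on GC pLN and 5 on GC PP, with 4 on naive pLN and 1 on naive PP. Of the others, Xcr1 was not detected, and Siglech, of plasmacytoid dendritic cells, was detected on naive pLN alone (235 against 23.7 on naive PP, with 48.8 and 57.0 on the GC arrays of pLN and PP). Zbtb46, a transcription factor of classical dendritic cells, was detected on both GC arrays and neither naive array, as Flt3 was, and read 140 and 148 on the GC arrays of pLN and PP and 95.5 and 87.5 on the naive arrays. Zbtb46 was not called (0.58 ± 0.51, adjusted p = 0.345), and its other 3 probe sets were not detected.

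Of 15 macrophage, monocyte and granulocyte members, 7 were detected on GC pLN and 5 on GC PP, with 5 on naive pLN and 2 on naive PP, and the summed signal of their 22 probe sets was 4334 and 5748 on the GC arrays of pLN and PP and 1843 and 4228 on the naive arrays. Apoe, which encodes a lipid carrier made by macrophages, read 2528 on GC pLN and 3561 on GC PP against 304 on naive pLN and 492 on naive PP. All 4 signals were above their levels, and the difference was 8.32-fold in pLN and 7.23-fold in PP (log2 difference 2.91 ± 0.41, limma adjusted p = 5.93e-06). Lyz2, the lysozyme of macrophages and granulocytes, read 244 and 369 on the GC arrays of pLN and PP against 42.3 and 50.3 on the naive arrays. It was called higher (2.38 ± 0.50, adjusted p = 0.000507), but with naive signals set to the level it was 0.69 and not called (adjusted p = 0.333), and without the GC PP array it was 2.10 (adjusted p = 0.0854). The fold was at least 2.22 in pLN and at least 1.26 in PP. Lyz1 is a close copy of Lyz2, and whether the probe set tells them apart was not tested. Cd68, a lysosomal glycoprotein of macrophages, read 346 on GC pLN and 321 on GC PP, with 259 on naive pLN and 89.0 on naive PP and was not called (1.05 ± 0.48, adjusted p = 0.0707). It was called in 3 of 18 alternatives, among them the fit without naive pLN (1.75, adjusted p = 0.00323).

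Other macrophage genes had other patterns. Adgre1, the F4/80 antigen of tissue macrophages, was detected on naive pLN alone, at 323 against 96.4 on naive PP, with 55.8 and 20.5 on the GC arrays of pLN and PP, so naive cells were at least 3.72-fold above GC cells in pLN. C1qb, a complement chain, had 3 probe sets. The brightest read 89.9 on GC pLN and 115 on GC PP, with 165 on naive pLN and 272 on naive PP, the second 82.0 and 145 on the GC arrays and 111 and 227 on the naive arrays, pLN first, and the third was detected nowhere. The 2 brighter C1qb probe sets have the suffix _x_at, which marks probes that can match other transcripts. C1qa and C1qc, whose products join C1qb in one complex, were not detected.

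S100a8 and S100a9 encode the 2 subunits of calprotectin, a calcium-binding protein of neutrophils and monocytes. S100a8 read 209 on GC pLN and 28.7, 16.0 and 13.9 on naive pLN, GC PP and naive PP. S100a9 read 481 on GC pLN and 26.2, 1.22 and 46.8 on the same arrays. Both were detected on the GC pLN array alone, at least 1.90-fold (S100a8) and 4.38-fold (S100a9) above naive pLN and at least 1.51-fold and 3.48-fold above GC PP. Of the 10 measured genes of a granulocyte and mast cell list, 1 was detected on each GC array and 0 on the naive arrays. That gene was Prg2, an eosinophil granule protein (140 on GC pLN, 680 on GC PP, and 13.7 and 5.00 on the naive arrays of pLN and PP, at least 1.28-fold higher in GC cells of pLN and 2.31-fold in PP). Prg2 was called higher (limma adjusted p = 2.8e-05), but not with signals under the level set to it (log2 difference 0.74, adjusted p = 0.279). Ngp, a neutrophil granule gene, read 63.5 on GC pLN and 3.88 on GC PP, with 2.60 on naive pLN and 3.67 on naive PP, below every level, and the neutrophil protease gene Elane was also above none. The summed signal of the list was 265 on GC pLN and 753 on GC PP, with 161 on naive pLN and 153 on naive PP. The part of such cells in the S100 signals was not tested.

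**Figure D3:**
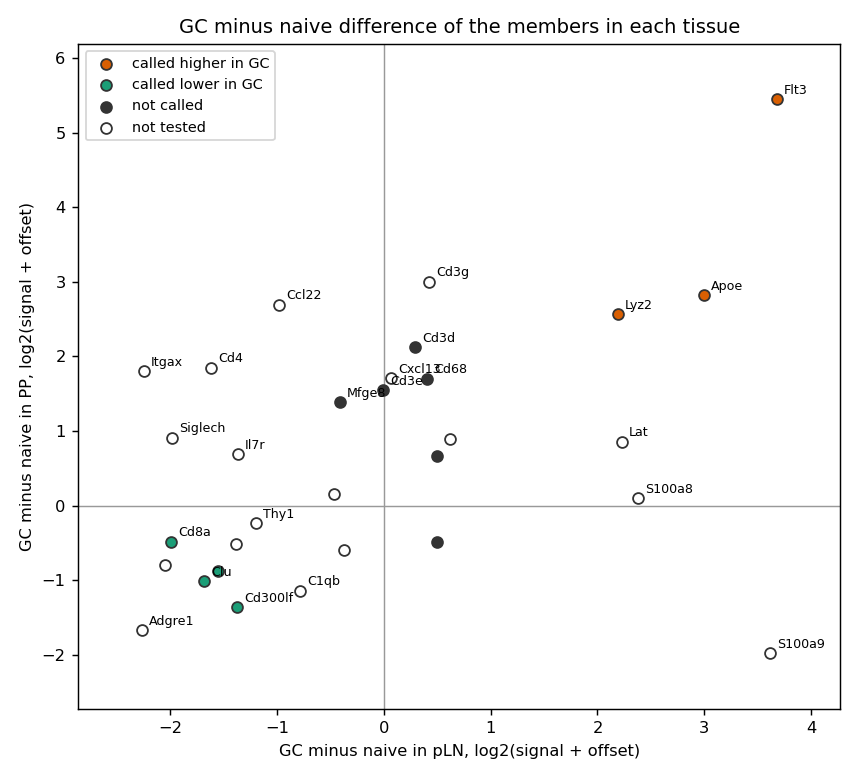
Difference between GC and naive cells on the log2(signal + offset) scale in pLN (x axis) and in PP (y axis) for the 31 member probe sets above the level on at least 1 array, coloured by the limma call. Flt3, Apoe and Lyz2 lie at the upper right, and Itgax and Ccl22 lie on opposite sides of 0 in the 2 tissues.

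Members were also counted within each tissue by the brightest probe set of a gene, on the log2(signal + offset) scale with signals under the level as measured. By this count 6 of 24 members detected on either pLN array were at least 2-fold higher in GC cells (Apoe, Flt3, Lat, Lyz2, S100a8 and S100a9), against 20.8% of all genes so detected. A further 9 of 24 were at least 2-fold lower (Adgre1, Cd300lf, Cd4, Cd8a, Clu, Il7r, Itgax, Siglech and Thy1), against 24.2%. In PP, 11 of 16 were higher (Apoe, Ccl22, Cd3d, Cd3e, Cd3g, Cd68, Cxcl13, Flt3, Itgax, Lyz2 and Mfge8), against 32.7%, and 2 lower (Cd300lf and Clu), against 26.4%. With signals under the level set to it, an alternative added after the data were seen, 5 members were higher in GC cells of pLN (the 6 without S100a8), against 18.2% of all genes, and 8 lower (the 9 without Cd4), against 22.2%. In PP, 2 were then higher, Apoe and Flt3, against 23.2%, and 2 lower, against 26.4%, so the other 9 of the 11 rest on naive signals under the level of 294. These counts set 1 array against 1 array and have no test. In PP, where the naive array had the high level, 17 member genes were detected on the GC array and 5 on the naive array.

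The next comparison sets PP against pLN within each cell type. The Gapdh ratio was near equal between the GC arrays and higher on naive PP than on naive pLN. Cd300lf, an inhibitory receptor of myeloid cells that binds lipids of dying cells, read 915 on GC PP against 92.0 on GC pLN and 2376 on naive PP against 261 on naive pLN. It was thus 9.95-fold higher in PP among GC cells and 9.10-fold among naive cells, and it was detected on all 4 arrays. With arrays scaled to the spike-in controls, an alternative added for this comparison after the data were seen, the folds were 10.4 and 3.61. Within each tissue it was lower in GC cells, by 2.84-fold in pLN and 2.60-fold in PP (log2 difference -1.37 ± 0.42, limma adjusted p = 0.0101). That call was lost with the spike-in scaling (-0.20, adjusted p = 0.934), without the tissue block (-1.37, adjusted p = 0.401) and on leaving out any of the 4 arrays. The difference was -2.93 without naive pLN (adjusted p = 0.0508) and without GC PP (adjusted p = 0.0561), and turned to 0.20 without GC pLN and 0.19 without naive PP. With trimmed-mean scaling the fold between tissues was the larger one in both cell types. Fits without 1 array had no tissue block, so the fold between tissues enters their differences.

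Clu, a secreted chaperone abundant in follicular dendritic cells and gut epithelium, showed the same order of arrays. Its brightest probe set read 67.2 on GC pLN and 396 on GC PP, with 248 on naive pLN and 812 on naive PP, and each of the 4 probe sets, 3 of them with the suffix _x_at, had naive PP highest and GC pLN lowest. PP was at least 4.57-fold above pLN among GC cells and 3.27-fold above it among naive cells, or 1.30-fold among naive cells with the spike-in scaling. In GC cells 2 probe sets were called lower (-1.35 ± 0.46, limma adjusted p = 0.0169, and -1.21 ± 0.46, adjusted p = 0.0321). Both calls were lost without the tissue block (adjusted p = 0.237 and 0.3), with the spike-in scaling (-0.20 and -0.08) and without GC pLN (adjusted p = 0.888 and 1). In all, 5 of 18 alternatives lost the first call and 8 of 16 the second, among them the fits without naive pLN and without naive PP. The apolipoprotein gene Apoa1, which gut epithelium makes, also read highest on naive PP, 1298 against 109.9 on naive pLN, with 3.33 and 102 on the GC arrays of pLN and PP, and its part was not tested.

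The stromal chemokine gene Cxcl13, which draws B cells to follicles, was detected on the GC PP array alone by both its probe sets. The brighter read 296 on GC PP against 41.9 on GC pLN, 39.2 on naive pLN and 81.0 on naive PP, and the other 165 against 72.9, 42.5 and 82.3. GC PP was at least 3.42-fold above GC pLN by the first and at least 1.90-fold by the second. Mfge8, a bridge between dying cells and phagocytes that follicular dendritic cells secrete, read 193 on GC pLN and 453 on GC PP, with 262 on naive pLN and 165 on naive PP, which is 2.34-fold higher on GC PP than on GC pLN. Mfge8 was not called between GC and naive cells (0.48 ± 0.49, adjusted p = 0.422), and its sign turned with quantile normalization (-0.13) and cyclic loess (-0.15). All 3 stromal members were detected on GC PP, 2 on naive pLN and 1 on each other array. The summed signal of their 7 probe sets was 474 on GC pLN and 2147 on GC PP, with 985 on naive pLN and 2590 on naive PP.

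Itgax, the CD11c integrin chain of dendritic cells and some activated B cells, read 424 on GC PP and 199 on naive pLN against 30.7 on GC pLN and 112 on naive PP. Ccl22, a chemokine that attracts helper T cells, had the same pattern: 404 on GC PP, 149 on naive pLN, 68.7 on GC pLN and 50.3 on naive PP. GC PP was at least 4.89-fold (Itgax) and at least 4.66-fold (Ccl22) above GC pLN. Cst3, the secreted protease inhibitor cystatin C, was above the level on all arrays (6259 on GC pLN and 4611 on GC PP, with 4421 on naive pLN and 6489 on naive PP) and was not called between GC and naive cells (0.00 ± 0.44, adjusted p = 0.994).

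By the brightest probe set, 10 of 21 members detected on either GC array were at least 2-fold higher in PP than in pLN (Ccl22, Cd300lf, Cd3d, Cd3e, Cd3g, Cd8a, Clu, Cxcl13, Itgax and Mfge8), against 3.63% of all genes so detected. A further 3 of 21 were at least 2-fold lower (Lat, S100a8 and S100a9), against 1.69%. With signals under the level set to it, the same 10 were higher, against 3.04%, and 2 lower, Lat and S100a9, against 1.19%. At 3-fold, 5 members were higher, a setting for which the share of all genes was not computed. Between the naive arrays, 2 of 16 were higher in PP (Cd300lf and Clu), against 7.13%, and 7 lower (Adgre1, Ccl22, Cd4, Cd68, Il7r, Siglech and Thy1), against 16.2%. All 7 lower ones were under the level of the naive PP array, and with such signals set to that level 0 members were 2-fold lower, against 9.39%, and the same 2 higher, against 7.13%. The members thus included genes of T cells, dendritic cells, stroma and myeloid cells on the PP side of the GC comparison. Of the 10, Cd3d, Cd3e, Cd3g, Cd8a and Cxcl13 read 204 to 296 on GC PP, against a level of 138, and the others 396 or more. The share of all genes was not matched for brightness. The members were chosen with earlier results of these data known, so nothing is read from the distance between these counts and the shares. None of these counts has a test.

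**Figure D4:**
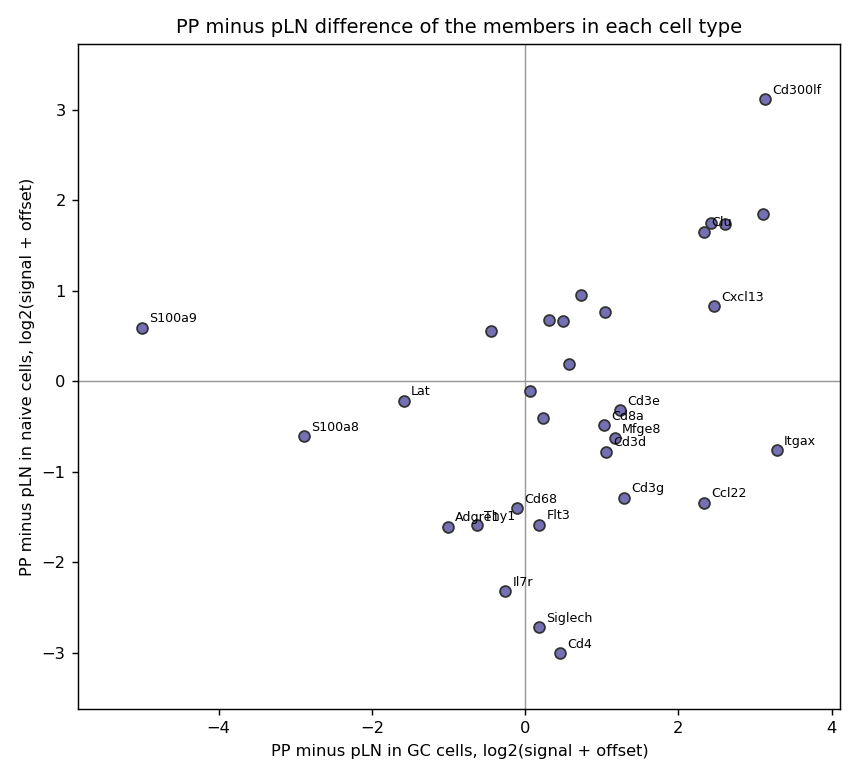
Difference between PP and pLN on the log2(signal + offset) scale in GC cells (x axis) and naive cells (y axis) for the 31 member probe sets above the level on at least 1 array. Cd300lf lies at 3.13 and 3.12 and the 4 Clu probe sets are above 0 on both axes, while Itgax lies at 3.29 and -0.76 and S100a9 furthest left at -5.00.

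Further marker lists were read on the same arrays. Of 13 measured further T cell genes, 1 was detected on each of GC pLN, naive pLN and naive PP, which was Cd2, an adhesion receptor that mouse B cells also carry, and 2 on GC PP, where Ctla4, an inhibitory receptor, read 599 against 60.2 on GC pLN, 27.0 on naive pLN and 121 on naive PP. Cd247, the zeta chain of the T cell receptor complex, was detected nowhere (125 on GC PP, 37.2 on GC pLN, 27.0 on naive pLN and 18.0 on naive PP). Cd2 was called lower in GC cells (-1.93 ± 0.47, limma adjusted p = 0.0019). Of 8 follicular helper T cell genes, Tox2, which encodes a nuclear factor, was detected, by 1 of its 2 probe sets. That probe set read 244 on GC pLN and 5080 on GC PP against 6.70 and 13.8 on the naive arrays of pLN and PP, at least 2.22-fold higher in GC cells of pLN and 17.3-fold in PP. Tox2 was called higher (limma adjusted p = 4.95e-07), also with signals under the level set to it (log2 difference 2.55, adjusted p = 3.02e-09). The other 7, Il21, Il4, Cd40lg, Sh2d1a, Ascl2, Icos and Pdcd1, were detected on no array at these levels. For Icos and Pdcd1 this rests on the level. Without Gh and Prm1 in the other-tissue list the GC levels were 31.0 (pLN) and 56.0 (PP). Icos was then above both (51.8 on GC pLN and 87.6 on GC PP), and Pdcd1 was above that of GC pLN (32.1). Icos and Pdcd1 are members as well, and the summed signal of the list was 504 and 5469 on the GC arrays and 212 and 371 on the naive arrays, pLN first. Of 8 NK and cytotoxic genes, 4 were detected on GC pLN and 3 on GC PP, with 1 on naive pLN and 0 on naive PP. Among them the granule protease gene Gzma read 256 on GC pLN and 2244 on GC PP against 10.3 and 11.5 on the naive arrays, at least 2.33-fold in pLN and 7.64-fold in PP. Perforin, Prf1, detected by 1 of its 2 probe sets, read 438 and 568 against 83.9 and 16.0, at least 3.98-fold and 1.93-fold. Both were called higher, also with signals under the level set to it (limma log2 difference 1.998, adjusted p = 1.88e-05, and 1.39, adjusted p = 0.00968). The receptor gene Klrd1 was not called (0.13 ± 0.54, adjusted p = 0.85), at 133 and 220 on the GC arrays and 287 and 80.6 on the naive arrays. The summed signal of the NK and cytotoxic list was 1063 on GC pLN and 3362 on GC PP, with 606 on naive pLN and 312 on naive PP. The NK and cytotoxic sum was highest on GC PP, as the CD3 genes were, and so was the follicular helper sum, through Tox2. The sum of the further T cell list was lowest there, at 3315 on GC PP against 5182 on GC pLN, with 10113 and 15614 on the naive arrays of pLN and PP, most of it Cd2. The part of these cells in the CD3 signals was not tested.

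Of 14 measured further macrophage genes, 1 was detected on each array: Cd5l, a macrophage-secreted protein, on both GC arrays (156 in pLN and 171 in PP) and Spic, a transcription factor of red pulp macrophages, on both naive arrays (282 in pLN and 882 in PP against 14.1 and 35.0 in GC cells). The phagocyte receptor gene Trem2 was detected nowhere. Spic was at least 3.26-fold lower in GC cells of pLN and 6.38-fold in PP, and was called lower (limma adjusted p = 3.69e-06), also with signals under the level set to it (log2 difference -2.06, adjusted p = 0.000744). Cd5l was not called (0.77 ± 0.51, adjusted p = 0.204). Of 15 stromal and endothelial genes, 4 were detected on GC pLN and 3 on GC PP, with 2 on naive pLN and 2 on naive PP. Cr2 and Fcer2a, on that list for follicular dendritic cells but also receptors of mature B cells, were detected on all 4 arrays and called lower in GC cells (-1.61 ± 0.43, adjusted p = 0.00391, and -1.66 ± 0.44, adjusted p = 0.0032). Pecam1, an endothelial adhesion molecule, was called higher (limma adjusted p = 0.0016), but with signals under the level set to it the log2 difference was 0.51 and not called (adjusted p = 0.518). Of 12 further dendritic cell genes, 6 were detected on GC pLN and 7 on GC PP, with 7 on naive pLN and 3 on naive PP. Irf8 and Tcf4 are transcription factors that B cells use too and were not called (-1.01 ± 0.46, adjusted p = 0.067, and 0.59 ± 0.44, adjusted p = 0.263), while Fscn1, an actin bundler of mature dendritic cells, was called higher (3.82 ± 0.59, adjusted p = 1.85e-05). Fscn1 read 96.1 on naive PP, under the level, and with such signals set to the level its difference was 3.08 (limma adjusted p = 3.52e-12).

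Of 7 plasma cell genes, 6 were detected on GC pLN and 6 on GC PP, with 5 on naive pLN and 4 on naive PP. Jchain, which joins polymeric antibodies, was called higher in GC cells (3.04 ± 0.44, limma adjusted p = 7.83e-06), as was the secretory chaperone gene Mzb1 (3.76 ± 0.57, adjusted p = 1.64e-05), and Irf4, a factor of activated B cells and plasma cells, was not called (-0.16 ± 0.43, adjusted p = 0.771). Mzb1 read 85.4 on naive PP, under the level, and with such signals set to the level its difference was 2.94 (limma adjusted p = 1.16e-10).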

How the data were processed

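RNA from sorted GC and naive B cells of pLN and PP was extracted with TRIzol and hybridised as biotin-labelled cRNA, per the labels' protocols. The submitters' processing notes name GCOS, with algorithm and version not given in the sources used here. As deposited, the values are linear intensities with a median of 1 on each of the 4 arrays, and 0 columns were left unused. Each array was rescaled to a 2% trimmed mean of 500, which takes the bulk of signals as equal between cell types. The offset added before log2 was 14.3, the median of 91 probe sets of other tissues, so log2 differences understate changes of dim genes. Their 90th percentile on an array was its detection level.

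Of 45101 probe sets, 34958 had 1 gene symbol, 932 several and 9211 were not listed, controls included. Through Entrez identifiers 34754 matched RefSeq, which changed 0 symbols. The GC-naive test was a limma 3.58.1 fit in R 4.3.3 that blocked on tissue and let the variance follow intensity (prior 21.9 degrees of freedom), with Benjamini-Hochberg adjustment over all probe sets tested, at 0.05. Only the limma fit was tried on simulated data, with the same noise for all probe sets and less noise than these arrays show, so that trial gives no error rate for the calls here. Comparisons of 1 array with 1 array carry no test and use each gene's brightest probe set. Every member was accounted for, those detected on at least 1 array with all 4 signals, and up to 3 of the brightest genes were named from each other list. Prg2 and Ngp follow that rule, and Apoa1 was singled out after its values were seen. The members and lists were chosen with earlier results of these data known. Alternatives covered scaling, offset, filter, probe sets, block, trend and each array left out.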

Additional observations from a re-analysis of the deposited data

Results flagged for a closer look

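Itgax differed between GC and naive cells by -2.25 in pLN and by 1.80 in PP on the log2 scale, opposite directions in the 2 tissues, each with the brighter array above its level. Each value sets 1 array against 1 array, and the difference between the tissues was not tested. In both tissues the dimmer array was under its level, so the bounds are at least 2.30-fold higher in naive cells of pLN and at least 1.44-fold higher in GC cells of PP.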

How the results depend on the processing

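Flt3 and Apoe were called higher under all 19 alternatives run for each, with log2 differences from 2.58 to 5.39 and from 2.57 to 4.09. Lyz2 was called in 16 of 18. Arrays were left out without the tissue block, which leaves no residual degree of freedom otherwise; the array alone in its cell type is then taken to vary like the others.

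Member probe sets called higher, 3 of 13 tested, became 5 of 13 with an offset of 50 (5750 of 16104 over all probe sets). They were 6 of 64 with no filter (5590 of 34958) and 7 of 39 with the level at the 75th percentile (6301 of 21437). Without Gh and Prm1 in the other-tissue list they were 6 of 29 (6122 of 19409). With the mean of a gene's probe sets they were 5 of 12 genes (2845 of 9127). The number tested thus changed with the setting. Leaving out 1 array gave 2 to 5. Those called lower, 4 of 13, became 0 of 13 with the spike-in scaling (26 of 16104 over all probe sets) and 0 of 13 without the tissue block (2728 of 16104). They were 1 of 4 at the 95th percentile (2281 of 11273) and 8 of 39 at the 75th (3786 of 21437). With the brightest probe set per gene they were 2 of 12 (2112 of 9109), and with the mean of probe sets 2 of 12 (1546 of 9127). Fits without 1 array also lost lower calls. No lower call of a member held under every setting. Over all probe sets, the 5414 called higher became 2470 with the spike-in scaling, 2275 (genes) with the brightest probe set and 2845 (genes) with the mean, and ranged from 1876 without GC PP (2127 without GC pLN) to 7096 without naive pLN. The 2949 called lower became 26 with the spike-in scaling and 1546 with the mean, and ranged from 645 without GC PP (743 without GC pLN) to 4107 without naive pLN. The spike-in scaling moved the median log2 difference of all tested probe sets from 0.38 to 1.54 and the share of calls that were higher from 64.7% to 99.0%. That share was 53.0% with quantile normalization and 51.9% with the brightest probe set.

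Signs turned for Cd300lf without GC pLN (0.20) and without naive PP (0.19), for Cd3d (-0.17), Cd3e (-0.22) and Zbtb46 (-0.31) with dim signals at the level, for Zbtb46 (-0.086) and Cd8a (0.018) with the mean of probe sets, for Cst3 without GC pLN (-0.22) and naive pLN (-0.27), and for Mfge8 with quantile normalization (-0.13), cyclic loess (-0.15) and without GC PP (-0.10). With dim signals at the level, the naive PP value was 294, above the GC PP signals of Cd3d, Cd3e and Zbtb46. Fits without 1 array had no tissue block, so differences between tissues enter them. For Cd300lf the PP minus pLN difference was 3.13 in GC cells and 3.12 in naive cells. The cause of the other turns was not tested.

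Detected member probe sets numbered 7, 7, 5 and 2 (GC pLN, naive pLN, GC PP, naive PP) at the 95th percentile and 46, 34, 39 and 25 at the 75th. Without Gh and Prm1 they were 38 on GC pLN and 33 on GC PP, or 59.4% and 51.6% against 59.9% and 55.7% of all probe sets. Quantile normalization keeps ranks within an array and cannot change the detected counts. The 11 members 2-fold higher in GC cells of PP became 2 with dim signals at the level. Of the tissue counts, the 10 higher in GC PP became 5 at 3-fold, and in naive cells the 7 lower became 0 with dim signals at the level and 11 with the spike-in scaling, which left 1 of the 2 higher. No paired analysis was possible because the labels give 1 sample per group; tissue served as the block.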
